A study of Mus musculus with 30 samples.

Results

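The genes described here encode interferon-inducible GTPases, the guanylate-binding proteins Gbp2, Gbp3, Gbp5, Gbp6 and Gbp7 and the immunity-related GTPases Iigp1, Igtp, Irgm1 and Irgm2. These 9 genes were set by name, and for each the probe set with a single gene symbol and the highest mean over 30 arrays was used. Such a probe set was given for 8 of the 9, of 18193 genes with one in all. Gbp5 had none under this rule and was not analysed here. All 8 passed the filter on low signal, a log2 intensity of at least 5 on at least 3 arrays, which 15726 genes passed.

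Astrocytes were sorted for GFP from brains of young adult mice labelled male, all of the strain Tg(Aldh1l1-eGFP) OFC789Gsat on a Swiss Webster background. The reporter follows the Aldh1l1 promoter, so any other cell in which that promoter is active would also pass the sort. Stroke was made by transient middle cerebral artery occlusion (MCAO) of 1 hour with reperfusion, and sham animals had the surgery without occlusion. Cells were taken after 1 day (5 MCAO and 4 sham arrays), 3 days (3 and 3) and 7 days (3 and 3). In the other arm, mice received 5 mg/kg lipopolysaccharide (LPS) from Escherichia coli O55:B55 into the peritoneum, or endotoxin-free saline, and cells were taken after 1 day (5 LPS and 4 saline arrays). The arrays are called biological replicates, but whether each came from a separate mouse, or from pooled mice, is not stated, so each p-value reflects only how far these arrays scatter, which may be technical.

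Interferons induce both families of GTPases as part of cell-autonomous immunity. Guanylate-binding proteins coat the vacuoles of intracellular pathogens and help to open them to cytosolic sensors. Among the immunity-related GTPases, Iigp1 is an effector that loads onto such vacuoles, whereas Irgm1, Irgm2 and Igtp (also called Irgm3) are regulators that sit on host membranes and keep the effectors inactive there. Promoters that respond to interferon gamma often hold GAS elements and those that respond to type I interferons hold ISRE elements, which IRF1 can bind. Gbp2 is in wide use as a marker of astrocytes after LPS.

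The promoters are shown because these genes moved together across the arrays. RefSeq promoter windows (GRCm38.p6, from 250 bases before to 50 bases after a transcript start) were given for 6 of the 8 measured genes and none was given for Gbp6 and Iigp1. An ISRE-type motif, GAAA, any 2 bases and GAAA again on either strand, was found in windows of all 6 genes, against 3.44% of the 32851 windows of all genes. A GAS-type motif, TTCNNNGAA, which reads the same on both strands, was found for 3 of them (Gbp7, Igtp and Irgm2), against 8.3% of all windows, and 0.454% of all windows held both. The genes were set by name as interferon-inducible, so these shares are a description and test nothing. Counts here are by gene and shares by window. The 110 bases before each start follow, 5′ to 3′ on the strand of the gene. Capitals mark the motifs, and a longer capital run in Gbp3 and Irgm1 is a pair of overlapping ISRE-type matches.
Gbp2: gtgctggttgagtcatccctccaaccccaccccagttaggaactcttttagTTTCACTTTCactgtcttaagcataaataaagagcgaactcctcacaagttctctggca
Gbp3: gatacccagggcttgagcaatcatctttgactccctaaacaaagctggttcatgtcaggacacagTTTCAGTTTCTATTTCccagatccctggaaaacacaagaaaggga
Gbp7: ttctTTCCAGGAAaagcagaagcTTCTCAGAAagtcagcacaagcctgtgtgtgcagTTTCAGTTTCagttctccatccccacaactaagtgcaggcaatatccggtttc
Igtp: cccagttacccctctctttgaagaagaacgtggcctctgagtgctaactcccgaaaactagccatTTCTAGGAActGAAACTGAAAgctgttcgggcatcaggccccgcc
Irgm2: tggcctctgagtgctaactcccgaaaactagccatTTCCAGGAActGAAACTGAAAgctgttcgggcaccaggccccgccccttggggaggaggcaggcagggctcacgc
Irgm1: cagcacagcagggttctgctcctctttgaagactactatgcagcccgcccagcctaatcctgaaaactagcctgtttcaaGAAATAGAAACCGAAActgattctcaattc

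These stretches lie at chr3:142620553-142620662 (Gbp2, plus strand), chr3:142559934-142560043 (Gbp3, plus), chr3:142530226-142530335 (Gbp7, plus), chr11:58199446-58199555 (Igtp, plus), chr11:58214867-58214976 (Irgm2, plus) and chr11:48871421-48871530 (Irgm1, minus). Gbp5, Gbp7, Gbp3, Gbp2b and Gbp2 follow each other among the protein-coding genes of chromosome 3, and Igtp and Irgm2 are neighbours on chromosome 11. The ISRE-type match began 59 bases before the start in Gbp2, 53 in Gbp7, 45 in Gbp3, 34 in Igtp, 64 in Irgm2 and 30 in Irgm1. In Igtp and Irgm2 the GAS-type match ended 2 bases ahead of the ISRE-type one, and the 21 bases from the first to the last capital were identical at 20 positions. Gbp3 has 2 windows from separate starts, and only the first held a match. A match is a description of letters, and binding at these windows was not measured.

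**Figure D1:**
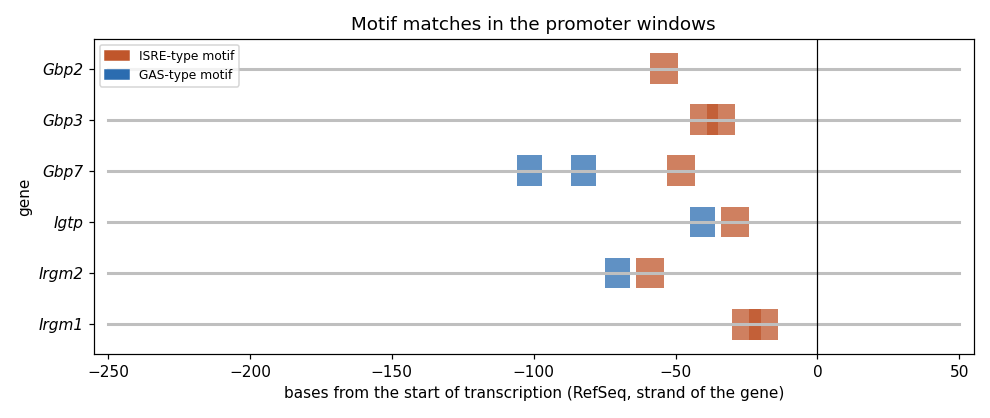
Positions of ISRE-type (orange) and GAS-type (blue) motif matches in the RefSeq promoter windows of the 6 measured genes that had one, in bases from the transcript start at 0; for Gbp3 the window with matches is drawn. All ISRE-type matches began within 64 bases before the start, and GAS-type matches occur in Gbp7, Igtp and Irgm2.

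Median intensities of the arrays lay between 68 and 73, apart from LPS array 5 at 94. Arrays fell in 2 sets by their highest intensity, 16 brighter ones (31338 and above) and 14 dimmer ones (26595 and below). The brighter set held all 1-day surgery arrays, LPS arrays 1 to 3, saline arrays 1 and 2 and array 3 of both 3-day groups. Aldh1l1 was high in every group (means from 12.38 to 12.78) and was called in none of the 4 comparisons, and Gfap, the intermediate filament of reactive astrocytes, rose after MCAO at 1 day (log2 1.69 ± 0.40 SE) and after LPS (1.87 ± 0.40). Against the label male, Xist was above log2 12 on LPS arrays 3 to 5, saline arrays 2 to 4 and MCAO 1-day array 4. Eif2s3y, a gene of the Y chromosome, read under log2 5 on those LPS and saline arrays but 9.52 on MCAO 1-day array 4. It read 9.25 to 11.72 on the arrays of low Xist signal. MCAO 1-day array 4 carried both signals, and whether it held RNA of more than 1 mouse was not tested.

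In every one of the 8 genes the LPS group had the highest mean and the MCAO group of 1 day the next highest, and sham at 7 days was the lowest for 7 of them. Most steps in that order were small beside the spread: of 56 pairs of groups next to each other in rank, 51 overlapped in their arrays. LPS and 1-day MCAO arrays overlapped for 5 genes and did not for Iigp1, Igtp and Irgm1. The share over all genes was not computed for these overlaps, and the LPS and MCAO groups have separate controls. The genes also moved together, with a Pearson r over the 30 arrays from 0.80 to 0.97 between their 28 pairs (median 0.88). Deviations from the group means gave 0.52 to 0.96 (median 0.77), against a median of 0.04 between pairs drawn from every 10th gene tested. Pairs of genes share arrays, and these values are a description. Saline array 3, LPS array 1 and 3-day sham array 3, each the highest of its group for all 8 genes, enter them. No r without these arrays is given here.

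**Figure D2:**
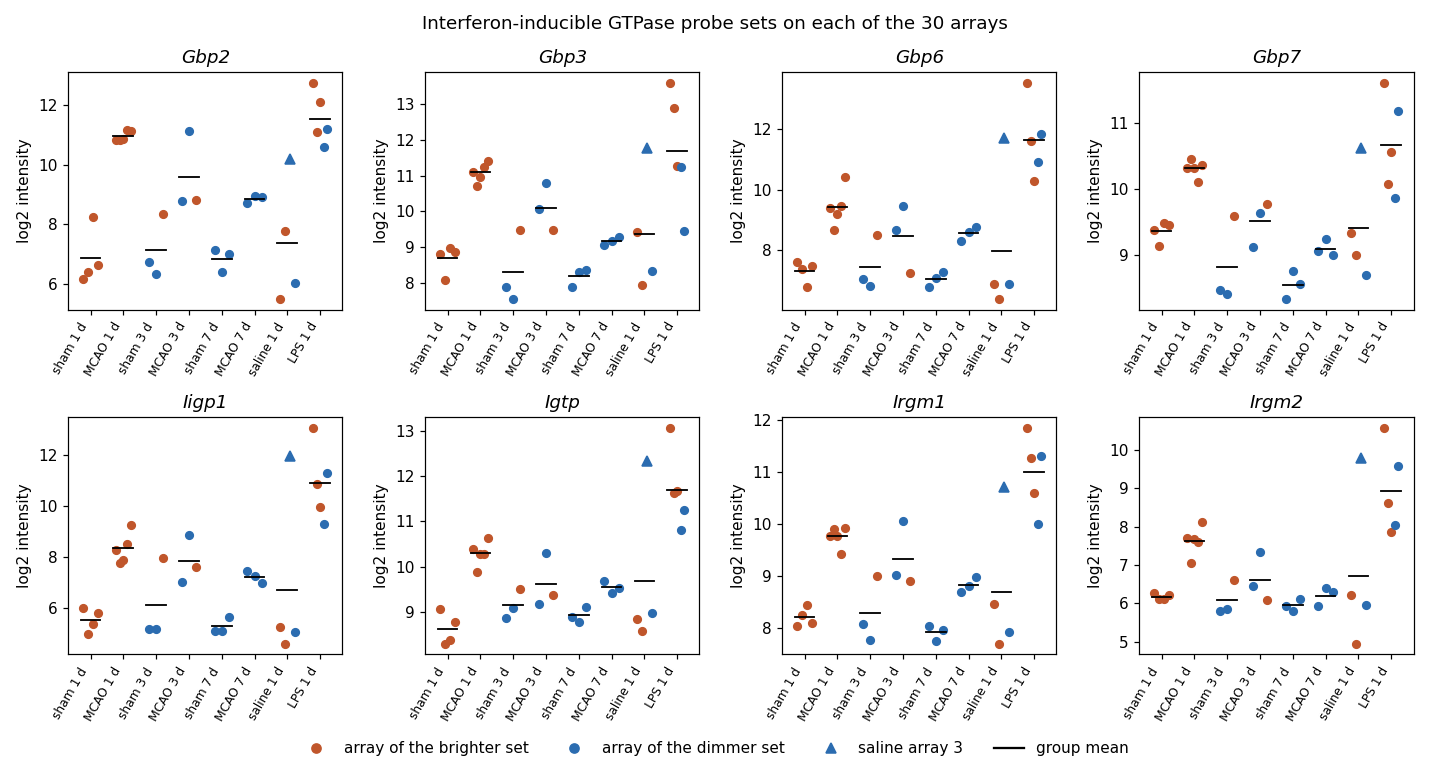
Log2 intensity of the 8 GTPase probe sets on each array, by group (points, arrays; bars, group means; orange and blue, arrays of the brighter and dimmer set; triangle, saline array 3). Group means are highest after LPS and next highest after MCAO at 1 day in all 8 panels, and saline array 3 stands above the other saline arrays in each.

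MCAO and sham were compared at 1 day to ask how the GTPases stand in astrocytes soon after a stroke. All 5 MCAO arrays lay above all 4 sham arrays for each of the 8 genes, a separation seen in 12.1% of the genes tested. In the limma fit over all 30 arrays 4 of the 8 rose at a Benjamini-Hochberg adjusted p under 0.05, against 6.49% of all genes called higher and 6.17% lower. The median difference over the 8 was log2 1.89, beside -0.05 over all genes tested.

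Among the guanylate-binding proteins, Gbp2 read log2 10.83, 10.84, 10.87, 11.19 and 11.13 on MCAO arrays 1 to 5 and 6.17, 6.39, 8.26 and 6.64 on sham arrays 1 to 4. Its MCAO arrays lay close together, and sham array 3 was the high control. Gbp2 rose 17.2-fold (log2 4.10 ± 0.67 SE, adjusted p = 0.000107, limma).

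Gbp3 read 11.11, 10.72, 10.96, 11.25 and 11.41 after MCAO and 8.82, 8.09, 8.99 and 8.88 after sham. It rose 5.24-fold (log2 2.39 ± 0.63, adjusted p = 0.0110, limma), with a wide gap between the groups. Gbp6 read 8.68 to 10.42 after MCAO and 6.79 to 7.61 after sham, a difference of 2.12 ± 0.73 (adjusted p = 0.0562). Gbp7 read 10.11 to 10.45 and 9.13 to 9.49, the smallest difference of the 8 at 0.95 ± 0.32 (adjusted p = 0.0532). Neither Gbp6 nor Gbp7 passed, although their arrays did not overlap.

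The effector Iigp1 read 8.28, 7.73, 7.85, 8.52 and 9.25 after MCAO and 5.98, 4.95, 5.36 and 5.78 after sham. The difference of 2.81 ± 0.96 did not pass (adjusted p = 0.0544, limma), and its size is not exact because sham levels lay near the log2 5 limit.

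Of the regulators, Igtp read 10.38, 9.89, 10.28, 10.29 and 10.63 after MCAO and 9.06, 8.30, 8.39 and 8.79 after sham, and rose 3.15-fold (log2 1.66 ± 0.50, adjusted p = 0.0255, limma). Irgm1 read 9.78, 9.91, 9.78, 9.43 and 9.93 after MCAO and 8.04, 8.26, 8.45 and 8.09 after sham, and rose 2.94-fold (log2 1.56 ± 0.42, adjusted p = 0.0121). Irgm2 read 7.06 to 8.11 and 6.11 to 6.27, a difference of 1.46 ± 0.60 that did not pass (adjusted p = 0.118). Arrays of the 2 groups were separate for all 3 regulators.

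The SE of each difference rests on a variance pooled over the 8 groups, and saline array 3, which is no part of this comparison, enters it. Without that array the differences were the same and 8 of 8 passed (6.37% of all genes called higher), with adjusted p from 7.46e-06 for Gbp2 to 0.0207 for Gbp7. Fitting the 21 surgery arrays alone also gave 8 of 8 (11.9% of all genes). The brighter arrays alone and the arrays of low Xist signal alone each called 8 of 8 as well (8.11% and 10% of all genes called higher). By unadjusted limma p under 0.05 there were 8 of 8 in the fit over all arrays, beside 23.3% of all genes.

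MCAO and sham arrays of 1 day share numbers in the sample descriptions, taken here as pairs. The count depended on how that pairing was fitted. With a block for the paired 1-day arrays 3 of 8 passed, Gbp2, Gbp3 and Irgm1 (4.45% of all genes called higher), and 7 of 8 passed when saline array 3 was also left out (4.35%). With a block for the surgery arrays of all 3 days, 1 of 8 passed (4% of all genes). Numbers are shared at 3 and 7 days too, and whether they mark pairs there is open. A block over all 30 arrays gave 8 of 8 (12.1% of all genes), but it fits 10 arrays exactly, saline array 3 among them, which takes them out of the variance.

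Some markers of other cells were called at 1 day, where 6.49% of all genes were called higher and 6.17% lower. Cd68, a lysosomal protein of phagocytes, rose by log2 1.98 ± 0.26, S100a8 by 0.87 and Il1r2 by 0.87. These were 1 of 13 microglia and macrophage markers and 2 of 9 neutrophil and monocyte markers, and Vwf rose among 13 endothelial ones. Tagln, of smooth muscle, rose by 1.53 ± 0.39 among 8 pericyte and smooth muscle markers, and Cnp and Aspa fell by 0.69 and 1.17 on the log2 scale among 10 oligodendrocyte markers. The summed intensity of the microglia and macrophage list was 1394 to 3103 after MCAO and 1299 to 2640 after sham. That of the neutrophil and monocyte list was 567 to 618 and 474 to 519, without overlap. Endothelial markers summed to 1836 to 10241 and 2985 to 9951. None of 7 T and NK cell markers was called. Of 10 astrocyte markers 1 was positive, Gfap, and the glutamate transporter gene Slc1a3 fell (-0.52 ± 0.15). The list had a median difference of -0.27 and summed to 133792 to 149455 after MCAO and 150916 to 159708 after sham, without overlap. The part of other cells in the GTPase values was not tested, and in RNA from sorted pools fewer cells of a type and less RNA per cell cannot be told apart.

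At 3 days none of the 8 passed, where 0.61% of all genes were called higher and 0.0636% lower. By unadjusted limma p under 0.05 there were 3 of 8, Gbp2, Gbp3 and Irgm1, beside 9.53% of all genes. Only Gbp2 was without overlap between MCAO and sham arrays, as were 5.74% of all genes. The median difference of the 8 was log2 1.02, beside 0.01 over all genes.

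Gbp2 read 8.78, 11.16 and 8.83 on MCAO arrays 1 to 3 and 6.73, 6.32 and 8.35 on sham arrays 1 to 3, a difference of 2.45 ± 0.81 SE (adjusted p = 0.195, limma). Iigp1 read 6.99, 8.87 and 7.60 after MCAO and 5.17, 5.17 and 7.93 after sham, a difference of 1.73 ± 1.17 (adjusted p = 0.793). Irgm1 read 9.02, 10.06 and 8.90 against 8.09, 7.77 and 8.997, a difference of 1.04 ± 0.51 (adjusted p = 0.521). In each of these genes MCAO array 2 was the highest of its group and sham array 3 the highest of the controls.

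Gbp3 read 10.07, 10.78 and 9.47 against 7.91, 7.57 and 9.48, a difference of 1.79 ± 0.77 (adjusted p = 0.411). The other 4 genes differed by 1.00 ± 0.89 (Gbp6), 0.68 ± 0.39 (Gbp7), 0.53 ± 0.72 (Irgm2) and 0.47 ± 0.60 (Igtp). MCAO array 2 was the highest MCAO array for 7 of the 8 genes, and sham array 3 was the highest sham array for all 8.

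Both arrays numbered 3 belong to the brighter set, and arrays 1 and 2 of both groups to the dimmer one. Within the brighter pair the MCAO array was lower than the sham array for 6 of the 8 genes, with a median difference of log2 -0.11 and a range from -1.25 for Gbp6 to 0.48 for Gbp2. Within the dimmer arrays the difference was positive for all 8, with a median of 1.87 and a range from 0.76 for Igtp to 3.44 for Gbp2, and 0 passed (4.01% of all genes called higher; 0 genes in the brighter pair). Over all genes tested the medians were 0.00 in each set. Fitting the surgery arrays alone, Gbp2, Gbp3 and Irgm1 passed at 3 days (2.33% of all genes called higher), with adjusted p of 0.0265, 0.0180 and 0.0408, and the arrays of low Xist signal alone called the same 3 (1.83% of all genes).

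Other markers differed between these arrays too. Tagln rose at 3 days (2.46 ± 0.48), and 9 of 10 oligodendrocyte markers were positive with a median of 0.93. Oligodendrocyte markers summed to 17102 to 23357 after MCAO and 10738 to 25265 after sham, those of their precursors to 2766 to 4931 and 1836 to 7989, and microglia and macrophage markers to 1006 to 1616 and 973 to 1355. Sham array 3, the high control of the GTPases, held the highest sham sums of both oligodendrocyte lists (25265 and 7989, the others at most 12476 and 1891). It also read log2 9.70 for Lcn2, a secreted protein of reactive astrocytes, beside 5.04 and 4.95 on sham arrays 1 and 2. The part of these in the GTPase values was not tested.

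At 7 days the 3 MCAO arrays lay above the 3 sham arrays for 7 of the 8 genes, as they did for 9.65% of all genes, with Irgm2 the exception. None of the 8 passed (0.0254% of all genes called higher, 4 genes, and 0 lower), and 1 of 8, Gbp2, had an unadjusted limma p under 0.05, beside 2.62% of all genes. The median difference was log2 0.95, beside -0.01 over all genes.

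Gbp2 read 8.70, 8.95 and 8.91 after MCAO and 7.14, 6.41 and 6.99 after sham, a difference of 2.01 ± 0.81 SE. Iigp1 read 7.45, 7.24 and 6.97 against 5.09, 5.09 and 5.61, a difference of 1.96 ± 1.17, again from a control level near the filter. Gbp6 read 8.31, 8.61 and 8.76 against 6.78, 7.07 and 7.29, a difference of 1.52 ± 0.89. Arrays of a 7-day group lay close together in these 3 genes, with SDs from 0.13 to 0.39.

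Irgm1 differed by 0.92 ± 0.51, Gbp3 by 0.98 ± 0.77, Igtp by 0.62 ± 0.60, Gbp7 by 0.54 ± 0.39 and Irgm2 by 0.25 ± 0.72. A fit on the 6 arrays of 7 days alone, which uses their own spread, called 5 of 8 higher (1.29% of all genes), and the fit on the surgery arrays alone called 0 of 8 (0.0127% of all genes called higher). The microglia and macrophage markers summed to 704 to 1966 after MCAO and 873 to 1242 after sham, and none of the 13 was called. All 7 markers of oligodendrocyte precursors were positive, with a median of 0.89 and sums of 3059 to 3852 after MCAO and 1450 to 1818 after sham. One of them, C1ql1, rose (1.81 ± 0.21) and was 1 of the 4 genes called at 7 days. Their part in the GTPase values was not tested.

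Every one of the 8 differences was smaller at 3 and at 7 days than at 1 day. The change in the MCAO effect ran from log2 -1.65 (Gbp2) to -0.26 (Gbp7) between 1 and 3 days and from -2.10 (Gbp2) to -0.41 (Gbp7) between 1 and 7 days. Neither change passed for any of the 8 (0 of 8 each, with 0.00636% and 0.356% of all genes called). By unadjusted limma p none was under 0.05, beside 5.99% and 8.6% of all genes. Without saline array 3 the unadjusted counts were 1 and 2 of 8, beside 5.91% and 8.46% of all genes. With the surgery arrays alone they were 3 and 4 of 8, beside 14.8% and 18.8%. In both fits 0 of 8 passed (1 and 48 genes called in all, and 49 and 535 with the surgery arrays alone). Between 3 and 7 days the change ran from -0.81 (Gbp3) to 0.51 (Gbp6), with 0 of 8 passing and 0 genes called in all. Each time point enters 2 of these changes and has its own controls. All surgery arrays of 1 day are of the brighter set and all of 7 days of the dimmer one. Time and array set cannot be told apart between those days.

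**Figure D3:**
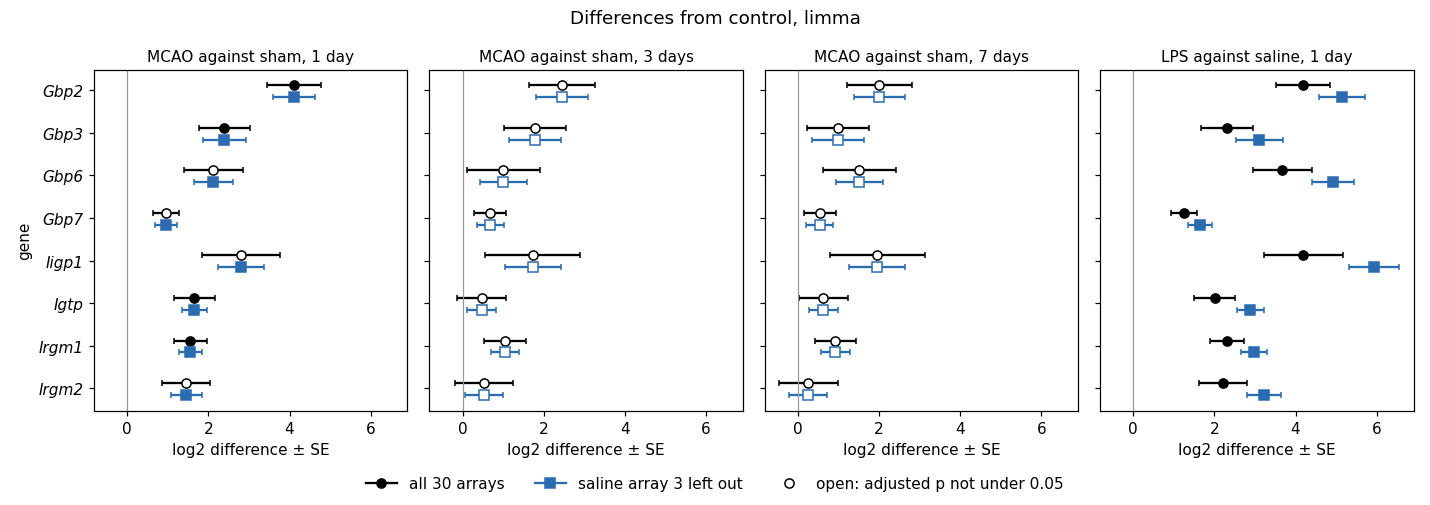
Log2 differences from control (points, with SE) for the 8 GTPase genes in the 4 comparisons, from the limma fit over all 30 arrays (black circles) and without saline array 3 (blue squares); filled symbols have an adjusted p under 0.05. Without saline array 3 the LPS differences lie between 1.64 and 5.94, and the MCAO differences at 1 day keep their values with smaller SE.

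LPS and saline were compared at 1 day to ask how astrocytes respond to systemic inflammation. All 8 GTPase genes rose, against 2.37% of all genes called higher and 0.744% lower, with a median difference of log2 2.31, beside 0.07 over all genes. Yet only Gbp2 was without overlap between LPS and saline arrays (1.88% of all genes), and in the other 7 saline array 3 read above 2 to 4 of the 5 LPS arrays. Without saline array 3 all 8 genes were without overlap (2.68% of all genes), all 8 rose (1.78% of all genes called higher) and the median difference was 3.17.

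Gbp2 read log2 12.77, 11.11, 12.12, 10.60 and 11.21 on LPS arrays 1 to 5 and 5.49, 7.76, 10.20 and 6.02 on saline arrays 1 to 4. It rose 18.3-fold (log2 4.19 ± 0.67 SE, adjusted p = 0.000296, limma) and, without saline array 3, 35.2-fold (5.14 ± 0.57, adjusted p = 2.14e-06). Its lowest LPS array was above saline array 3.

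Gbp6 read 13.53, 11.60, 10.30, 10.91 and 11.82 after LPS and 6.87, 6.39, 11.70 and 6.87 after saline, so that saline array 3 exceeded 3 of the 5 LPS arrays. It rose by 3.67 ± 0.73 (adjusted p = 0.00396, limma) and by 4.92 ± 0.52 without that array. Gbp3 read 13.58, 12.88, 11.25, 11.23 and 9.45 against 9.43, 7.96, 11.76 and 8.33. It rose by 2.31 ± 0.63 (adjusted p = 0.0406) and by 3.11 ± 0.58 without saline array 3, and LPS array 5 was barely above saline array 1. Gbp7 read 9.86 to 11.60 after LPS and 8.70 to 10.62 after saline, and rose by 1.24 ± 0.32 (adjusted p = 0.0306) and by 1.64 ± 0.30 without that array.

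The effector Iigp1 read 13.07, 10.87, 9.96, 9.30 and 11.27 after LPS and 5.25, 4.58, 11.94 and 5.04 after saline. Saline arrays 1, 2 and 4 were near the filter of log2 5, and saline array 3 exceeded 4 of the 5 LPS arrays. Iigp1 rose by 4.19 ± 0.96 (adjusted p = 0.0129, limma), and by 5.94 ± 0.62 without saline array 3, the largest value of the 8. Both sizes rest on control levels near the filter and are not exact.

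Among the regulators, Irgm1 read 11.86, 11.27, 10.60, 10.01 and 11.32 after LPS and 8.46, 7.70, 10.72 and 7.93 after saline. It rose by 2.31 ± 0.42 (adjusted p = 0.00140, limma) and by 2.98 ± 0.32 without saline array 3, which exceeded 2 LPS arrays. Igtp read 13.07, 11.64, 11.67, 10.81 and 11.26 against 8.84, 8.58, 12.34 and 8.98, and rose 4.01-fold (SE of log2 0.50, adjusted p = 0.0221) and by 2.89 ± 0.33 without that array. Irgm2 read 10.57, 8.61, 7.86, 8.03 and 9.58 against 6.21, 4.95, 9.77 and 5.95, and rose by 2.21 ± 0.60 (adjusted p = 0.0371) and by 3.23 ± 0.42. LPS array 1 was the highest LPS array for all 8 genes and saline array 3 the highest saline array for all 8.

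The calls and differences after LPS varied with the arrays used. A fit on the 9 LPS and saline arrays alone called 0 of 8 (0.388% of all genes called higher). All 8 had an unadjusted limma p under 0.05 in that fit (6.25% of all genes). Leaving out 1 LPS or saline array called 3 to 8, with 225 to 990 genes called in all in either direction. The count was 3 without saline array 2 or 4, and 4 without saline array 1 or LPS array 1. With a block for the surgery arrays, which leaves the LPS differences as they were, 3 of 8 passed (1.2% of all genes). The brighter arrays alone called 8 of 8 (1.46% of all genes), with a median difference of 3.66. The dimmer arrays alone, LPS arrays 4 and 5 against saline arrays 3 and 4, called 0 of 8 (0.61% of all genes), with a median difference of 1.14.

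Saline array 3 stood apart in the GTPases. It lay at least log2 2 above the other saline arrays in 7 of the 8 genes, against 27 of the 15726 genes tested (0.172%). The gap ran from 1.29 for Gbp7 to 6.69 for Iigp1, and second probe sets of Gbp2, Gbp6, Gbp7 and Iigp1 showed it too, for example 9.50 against at most 4.86 for Iigp1. The other 20 of the 27, chosen after their values were seen, included the guanylate-binding protein Gbp8, the chemokines Cxcl9 and Cxcl10, the class I genes H2-K1 and H2-D1, and Oasl2, Nlrc5, Tap1 and Psmb9. Lcn2 did not share the gap: it read 6.60 on saline array 3, 13.70 to 14.36 on the LPS arrays and 4.95 to 5.93 on the other saline arrays. Whether the label of saline array 3 holds was not tested. Saline arrays 1 and 2 had 26 and 60 genes of their own with such a gap, and array 4 had 0.

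On saline array 3 the microglia and macrophage markers summed to 1020, within the 771 to 1244 of the other saline arrays, and the endothelial markers to 845, within 624 to 1008. Neutrophil and monocyte markers summed to 524, beside at most 521, and T and NK cell markers to 632, beside at most 561. Aif1, Itgam and Ptprc, which define microglia and other leukocytes, S100a8, S100a9 and Csf3r of neutrophils, and Cd3g and Cd2 of T cells were each under the filter of log2 5 on it, as Aif1, Ptprc and S100a8 were on 25, 23 and 21 of the 30 arrays. Other defining markers were not: Csf1r read 7.61 (6.54 to 8.54 on the other saline arrays), Ctss 7.30 (at most 7.10), Cd3e 7.83 (at most 7.38) and Cd8a 7.64 (at most 7.42). Saline array 3 was above all other saline arrays in 2 of 14 microglia and macrophage, 1 of 9 neutrophil and monocyte, 2 of 9 T and NK cell and 4 of 13 endothelial markers, each by no more than log2 1. Gfap (12.42, the others at most 11.26) and the oligodendrocyte markers Ugt8a (8.45, at most 7.31) and Ermn (6.82, at most 5.75) were more than log2 1 above.

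In the LPS comparison 1 of 7 T and NK cell markers (Gzmb, 0.88 ± 0.22) and 1 of 8 pericyte and smooth muscle markers (Rgs5) rose. None rose of 13 microglia and macrophage, 9 neutrophil and monocyte and 13 endothelial markers. Of all genes, 2.37% were called higher and 0.744% lower. Summed intensities after LPS and saline were 390 to 868 and 364 to 632 for T and NK cells, and 1046 to 1494 and 771 to 1244 for microglia and macrophages. They were 454 to 991 and 403 to 524 for neutrophils and monocytes, and 787 to 1648 and 624 to 1008 for endothelial markers. Pericyte and smooth muscle markers summed to 3258 to 7481 and 4532 to 6195. The 10 astrocyte markers, 5 of them positive, summed to 76703 on LPS array 5 and to 109808 to 155266 on the other LPS arrays. The part of these in the GTPase values was not tested. With the Xist signal as a covariate 8 of 8 kept their call (522 genes called in all, in either direction). The LPS and saline arrays with that signal alone, 3 against 3 with saline array 3 among them, called 0 of 8 (0.0509% of all genes called higher, 8 genes).

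To ask whether the GTPases respond differently to LPS and to MCAO, the difference of the 2 effects at 1 day was tested. None of the 8 passed (1.39% of all genes called in either direction), and by unadjusted limma p 0 of 8 were under 0.05, beside 12.8% of all genes. The difference ran from log2 -0.08 ± 0.89 SE for Gbp3 and 0.09 ± 0.94 for Gbp2 to 1.55 ± 1.04 for Gbp6. Without saline array 3 all 8 were larger after LPS, from 0.70 ± 0.40 for Gbp7 to 2.80 ± 0.71 for Gbp6 and 3.13 ± 0.84 for Iigp1. Again none passed (adjusted p = 0.0557 for Gbp6 and 0.0719 for Iigp1, limma; 0.776% of all genes called), and 5 of 8 had an unadjusted p under 0.05, beside 11.8% of all genes.

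Blocks moved this comparison. With the description numbers as a block over all arrays 4 of 8 passed (4.11% of all genes called) with a median of 2.76, and there the LPS effect rests on the 1 number that an LPS and a saline array share. With the block for 1-day surgery arrays 0 of 8 passed (0.56% of all genes; 0.324% without saline array 3, again 0 of 8), and with that for all surgery arrays 0 of 8 (0.401%). The effects have separate controls, sham surgery and saline injection.

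**Figure D4:**
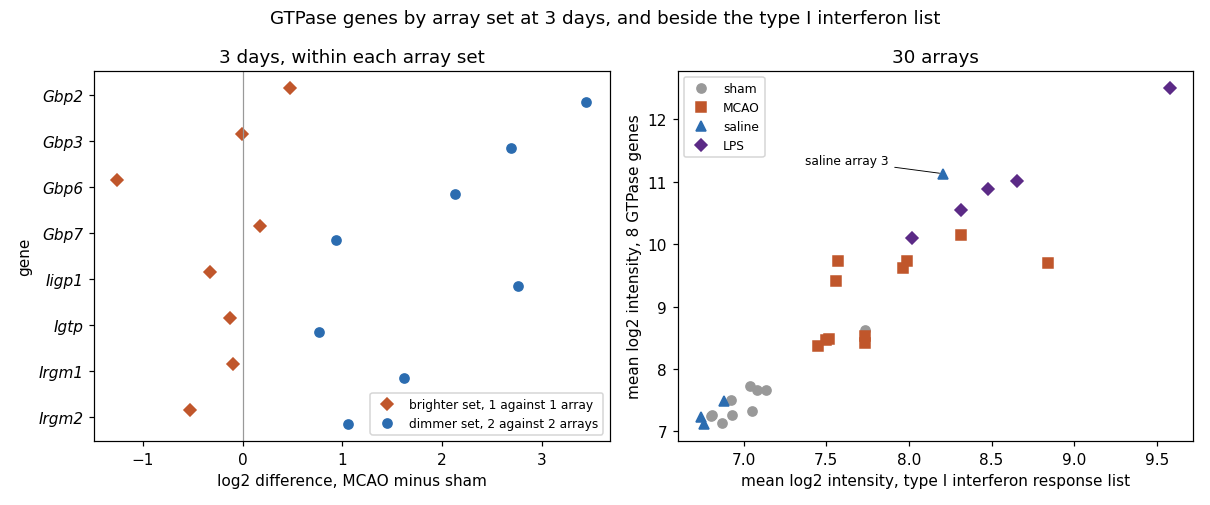
Left, log2 differences between MCAO and sham at 3 days for each gene within the brighter arrays (orange diamonds) and the dimmer arrays (blue circles); 6 of 8 are below 0 in the brighter pair and all 8 above 0 in the dimmer arrays. Right, mean log2 intensity of the 8 GTPase genes on each of the 30 arrays against that of 23 type I interferon response genes; saline array 3 (11.13 and 8.20) lies among the LPS arrays on these 2 means.

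Ifng, which encodes interferon gamma, was under the filter on all arrays and was not tested. Whether interferon gamma from other cells reached these astrocytes was not measured. The receptor chains differed by log2 -0.13 ± 0.40 (Ifngr1) and 0.01 ± 0.17 (Ifngr2) after MCAO at 1 day and by 0.40 ± 0.40 and 0.40 ± 0.17 after LPS, and were called in none of the 4 comparisons. Irf1, a transcription factor that interferon gamma induces, differed by 0.73 ± 0.36 and 1.14 ± 0.36 (adjusted p = 0.219 and 0.0831, limma) at 1 day. It differed by 1.39 ± 0.43 at 3 and 1.55 ± 0.43 at 7 days after MCAO, also without a call.

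Of 15 genes of the interferon gamma pathway that passed the filter, 2 rose after MCAO at 1 day and 3 after LPS, with none lower. Of all genes, 6.49% and 2.37% were called higher. Cxcl10, a chemokine, rose by 3.89 ± 0.78 and 3.49 ± 0.78, and Psmb8, an immunoproteasome subunit, by 1.52 ± 0.47 and 3.69 ± 0.47. Psmb9, another such subunit, rose after LPS by 3.01 ± 0.49. The list's median difference was 0.27 after MCAO and 0.67 after LPS, beside -0.05 and 0.07 over all genes.

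Of 23 genes of the type I interferon response, 5 rose after MCAO at 1 day and 13 after LPS, again with none lower (6.49% and 2.37% of all genes called higher). Those after MCAO were Irf9 (1.16), Oasl2 (2.51), Rsad2 (1.46), Usp18 (2.34) and Parp14 (1.56), and all 5 also rose after LPS, by 1.63, 3.82, 1.67, 2.84 and 2.50. The list's median was 0.70 after MCAO, 0.96 at 3 days, 0.58 at 7 days and 1.63 after LPS. Over all genes these medians were -0.05, 0.01, -0.01 and 0.07.

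Of 7 other genes of the GTPase families with a measured probe set, 0 rose after MCAO at 1 day and 1 after LPS. Of all genes, 6.49% and 2.37% were called higher. The gene after LPS was Mx1 (1.03 ± 0.25), a dynamin-like GTPase against viruses. Among 14 genes of GTPase partners and inflammasomes, 1 rose after MCAO at 1 day and 1 after LPS, beside the same shares of all genes. The protease gene Casp1 rose after MCAO (1.19 ± 0.36), and Gsdmd, whose product forms pores, rose after LPS (1.05 ± 0.24). None of these 4 lists had a called gene at 3 or 7 days, where 0.61% and 0.0254% of all genes were called higher. The lists were chosen with results of these data known. Their values after LPS are from the fit with saline array 3, which was high in several of their genes. Its gap above the other saline arrays was log2 5.16 for Gbp8, 3.03 for Ifi47, 3.88 for Cxcl10 and 4.68 for Oasl2.

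The genes whose levels ran most like the mean of the 8 standardised GTPase genes over the 30 arrays were Oasl2 (Pearson r 0.94), Nlrc5 (0.94), Ifi47 (0.93), Parp14 (0.93), Irf9 (0.92), Serping1 (0.92), Gm4951 (0.91) and C1s1 (0.89). Within groups, as deviations from the group means, r was 0.93 for Oasl2, 0.91 for Nlrc5 and 0.64 for C1s1. Among the 8 themselves, r with that mean ran from 0.91 for Gbp2 to 0.98 for Irgm1, which includes each gene's own value. Saline array 3 and LPS array 1 enter all of these values.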

How the data were processed

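Intensities, 1 for each probe set on each array, were deposited as whole numbers from 9 to 35553, made by the authors with RMA per the submitters' processing notes (version not given in the sources used here). They were converted to log2 here. The platform annotation gave 1 gene symbol for 34945 of the 45037 probe sets, several for 932 and none for 9160. Near-identical family members may share probes. Genes at log2 5 or more on at least 3 arrays were tested with limma 3.58.1 (R 4.3.3) in 1 model over 8 groups, with 22 residual and 4.55 prior degrees of freedom. Tests were 2-sided, p-values were adjusted over the 15726 genes by Benjamini-Hochberg, and values under 0.05 count as called. The fit was tested on simulated data. Named genes were all members, the 8 most alike by Pearson r, up to 6 called genes a list by size, and Irf1, Ifng and its receptors. Members and lists were chosen with earlier results of these data known. Promoters are RefSeq's (GRCm38.p6). MCAO and sham arrays share numbers in the sample descriptions: at 1 day the 4 pairs' deviations from group means correlated at 0.16 to 0.50. At 3 days the pairs gave 0.19, 0.03 and 0.21 and at 7 days 0.37, 0.31 and 0.004. Whether the numbers mark pairs there is open. Arrays have no depth, and their number limits the precision. Alternatives were other normalisations, filters, probe sets, variances, blocks, array sets and left-out arrays, and those on array set, Xist, surgery arrays and blocks limited to a comparison or to surgery arrays were chosen after seeing the data.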

Additional observations from a re-analysis of the deposited data

Results flagged for a closer look

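Among 32 tests of the highest and lowest array over the 4 groups of 4 or 5 arrays, 3 stood apart, and chance alone gives about 1 in 20. In the saline group the gap between array 3 and its nearest neighbour took 0.910 of the whole range for Gbp6 (log2 11.70 against 6.87), 0.910 for Iigp1 (11.94 against 5.25) and 0.894 for Igtp (12.34 against 8.98). All 3 are the same array.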

How the results depend on the processing

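Of the 8 genes, MCAO at 1 day gave 4, with 1991 genes called in all in either direction (further such totals in brackets). It gave 8 with array weights (6161) and with the compared groups alone (5180). It gave 8 too with the surgery (4181), brighter (2653) or low-Xist arrays alone (3618). The description numbers as a replicate block gave 8 as well (4329, and 5136 within the compared groups). A filter at log2 6 gave 7 (2020), the array set as covariate 6 (2373) and an adjusted p under 0.01 gave 1 (1096). Median centring (2086), the mean of probe sets (2253), the other probe set of a member (1992) and the Xist covariate (2134) gave 5. Only unshared probe sets, without Gbp3, gave 3 (1671). With 1 array left out the comparison gave 3 to 8 (1367 to 1950), 8 without saline array 3 and otherwise 3 to 4. The description block gave 3 when limited to the 1-day surgery arrays, 7 when saline array 3 was also out, and 1 when limited to all surgery arrays. At 3 days the 0 became 2 with array weights (1937) or the description block (864) and 3 with the surgery (654) or low-Xist arrays alone (466). It stayed 0 with the block within the compared groups, where it is open whether the numbers mark pairs. At 7 days the 0 became 5 with the compared groups alone, with (188) or without the block (205). After LPS the 8 (489) became 3 at an adjusted p under 0.01 (197) or with the block for surgery arrays (232). It became 0 with the compared groups alone (65), the dimmer arrays alone (117) or the Xist-signal arrays alone (8). Quantile normalisation (505), median centring (417), array weights (1660) and only unshared probe sets, without Gbp3 (415), gave 6. No filter (473), the low-Xist arrays alone (276) and the other probe set of a member (486) gave 7. With 1 array left out the LPS comparison gave 3 to 8 (225 to 990). It gave 4 without LPS array 1 or saline array 1, and 3 without saline array 2 or 4. The title numbers as a replicate block left 4, 0, 0 and 6, and the description numbers, of which LPS and saline arrays share only 1, left 8 after LPS with the median difference at 4.30. Between effects, 1 gene passed for MCAO at 7 days minus 1 day with array weights (3144). For LPS minus MCAO, 4 passed with the description block over all arrays (646). With the array set as covariate and saline array 3 out, 1 passed for LPS minus MCAO (204). Between effects 0 passed under the other alternatives run. Signs turned at 3 days in the brighter pair for Gbp3 (-0.0061), Gbp6 (-1.25), Iigp1 (-0.33), Igtp (-0.13), Irgm1 (-0.10) and Irgm2 (-0.53). For LPS minus MCAO, Gbp2 turned with median centring (-0.018) and ran from -0.54 to 1.12 with 1 array, or saline array 3 and LPS array 5, left out. Gbp3 turned with array weights (0.79), the description block over all arrays (1.77) or 1-day surgery arrays with saline array 3 out (0.72), the brighter arrays alone (1.49), without saline array 3 and LPS array 5 (1.27) and with the set as covariate and saline array 3 out (0.79), and ran from -0.56 to 1.27 with the same arrays left out, and Igtp from -0.021 to 1.34. No sign turned for the 8 genes in the MCAO comparisons of 1 and 7 days or after LPS under the alternatives run. Over all genes, calls at an adjusted p under 0.05 ranged from 1078 to 6161 at 1 day (1991 in the fit reported), 0 to 1937 at 3 days (106), 1 to 525 at 7 days (4) and 8 to 1832 after LPS (489). The cause of these shifts was not tested.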
